A study of Mus musculus with 4 samples.

Results

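The tropomyosin genes (Tpm1, Tpm2, Tpm3 and Tpm4), both non-muscle α-actinin genes (Actn1 and Actn4), the filamin gene Flna, the cortactin gene Cttn and the STE20-like kinase gene Slk were followed in CMT64 cells. These 9 genes were chosen by name from the 25704 genes of each expression table, and all 9 were present and passed the filter on low counts. CMT64 is a cell line from a lung carcinoma that arose in a C57BL/lcrf mouse. The cells were cultured for 24 h without cytokine (control), with 5 ng/ml TGF-β, with 10 ng/ml TNF-α, or with TGF-β and TNF-α at the same concentrations (costimulation). Poly(A) RNA of each condition was sequenced as 1 library, so the 4 libraries hold no replicates, no spread within a condition could be measured, and all 4 come from 1 line. The libraries held between 67481462 and 71898396 exon reads.

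Tropomyosins are coiled-coil dimers that lie along the actin filament and set which motors and severing proteins reach it. α-Actinins are antiparallel dimers that hold filaments together in stress fibers and at adhesion sites, and filamins crosslink filaments into orthogonal networks and bind integrin tails. Cortactin stabilizes branches made by the Arp2/3 complex. Slk phosphorylates ezrin-type linkers between the membrane and actin. In epithelial cells that undergo epithelial–mesenchymal transition (EMT) under TGF-β, cortical actin is rearranged into stress fibers, which contain several of these proteins.

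The tables' gene regions of all 9 genes were identical to those of the GENCODE annotation of mouse genome build GRCm38 (mm10). Tpm1 spans chr9:67022590-67049406 on the minus strand, Actn1 spans chr12:80167547-80260371 on the minus strand, and Flna spans chrX:74223461-74249820 on the minus strand. Tpm2 (chr4:43514711-43523765, minus strand), Tpm3 (chr3:90072649-90100902, plus strand), Tpm4 (chr8:72134975-72153142, plus strand), Actn4 (chr7:28893248-28962340, minus strand), Cttn (chr7:144435733-144471009, minus strand) and Slk (chr19:47579678-47645246, plus strand) are the other genes. All are protein coding, and the values are sums over the exons of each gene, so isoforms of 1 gene are pooled.

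The Tpm3 sequence bears on how its reads can be read. Tpm3-rs7, a single-exon copy of Tpm3 on chromosome 14 that the tables list as a gene of its own, has a coding sequence of 747 bases of which 744 equal those of Tpm3 (99.6%). Within this coding sequence, only reads over the 3 differing bases can be given to 1 of the genes. Other reads within it, including those over junctions, can match both. Sequence outside it was not compared base by base, so differing bases there are not counted. The 3 bases all fall in coding bases 40 to 129, which are printed here for both genes from the GENCODE transcripts with the differing bases in capitals.
Tpm3: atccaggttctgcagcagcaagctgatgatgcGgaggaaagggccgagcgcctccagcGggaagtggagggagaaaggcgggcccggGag
Tpm3-rs7: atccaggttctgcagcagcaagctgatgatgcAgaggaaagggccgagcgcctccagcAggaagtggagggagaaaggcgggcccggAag
Of the 50-base stretches in Tpm3 transcripts, 23.2% also occur in Tpm3-rs7. In Tpm4, 15.7% of such stretches occur on either strand of another gene, in Actn1 6.79%, in Actn4 4.50% and in Cttn 2.88%, whereas Tpm1, Tpm2, Flna and Slk have none. Most of those of Actn1 (5.69%, Gm47766) and Actn4 (4.24%, Capn12) lie in a gene that overlaps on the opposite strand. Only 0.29% of the Actn1 stretches occur in Actn4.

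Promoter sequences were read as a description, and 8 of the 9 genes had an entry in the RefSeq promoter table (build GRCm38.p6), with Cttn the exception. The 250 bases before the start were searched on both strands for CATTCC (the MCAT element, bound by TEAD factors), TGANTCA (AP-1), CAGACA (a Smad-binding element) and the CArG box (bound by SRF). CATTCC was found in the promoters of Tpm1, Flna and Actn4, and in 12.6% of all 32851 promoters. The Tpm1 and Flna transcripts were higher with TGF-β and the Actn4 transcript did not pass the test (below), so these promoters are printed 5′ to 3′ with every motif found in capitals.
Tpm1 (chr9:67049214-67049463, minus strand): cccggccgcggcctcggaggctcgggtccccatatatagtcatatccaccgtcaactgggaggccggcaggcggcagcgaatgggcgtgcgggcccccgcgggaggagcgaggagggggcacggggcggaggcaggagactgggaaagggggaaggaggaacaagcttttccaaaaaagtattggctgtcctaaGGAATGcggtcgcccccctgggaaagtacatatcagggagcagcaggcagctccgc
Flna (chrX:74246535-74246784, minus strand): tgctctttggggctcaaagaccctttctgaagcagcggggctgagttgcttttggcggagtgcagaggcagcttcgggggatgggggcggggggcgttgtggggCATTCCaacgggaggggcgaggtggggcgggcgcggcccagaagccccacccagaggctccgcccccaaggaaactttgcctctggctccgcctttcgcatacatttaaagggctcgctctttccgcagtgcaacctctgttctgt
Actn4 (chr7:28962333-28962582, minus strand): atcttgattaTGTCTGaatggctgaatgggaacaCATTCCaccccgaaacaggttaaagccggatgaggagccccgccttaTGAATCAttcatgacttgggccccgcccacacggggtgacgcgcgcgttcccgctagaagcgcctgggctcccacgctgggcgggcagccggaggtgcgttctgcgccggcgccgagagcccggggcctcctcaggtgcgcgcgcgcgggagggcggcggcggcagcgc
The CATTCC match begins 56 bases before the start in Tpm1, where it reads GGAATG on the printed strand, 146 bases before it in Flna and 216 bases before it in Actn4. The Actn4 promoter also held TGANTCA (6.75% of all promoters) and CAGACA (17.1%), which reads TGTCTG on the printed strand. Of the other genes with an entry, CAGACA was found in 1 of the Tpm3 promoters. The promoters of Actn1 and Tpm4, which were higher with TGF-β, and of Tpm2 and Slk held none of the motifs. The CArG box (1.47% of all promoters) was found for none of the 8 genes. The Flna window lies inside the gene region that the tables give. The Tpm1 window lies partly inside its own region, with the CATTCC match in the overlap, and the Actn4 window overlaps its region at the edge. A match describes these letters and shows no binding.

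The 4 libraries were first checked for the cell type. The epithelial keratins Krt8, Krt18 and Krt19 and the E-cadherin gene Cdh1 were each at 121 RPKM or more (reads per kilobase of exon, scaled to the mapped reads of the library, which allows genes of different length to be compared) in every library, whereas Epcam, also an epithelial marker, lay between 0.042 and 0.103 RPKM. The summed level of the 5 epithelial markers was 3860 RPKM in control and 3270 with TNF-α, and 2419 with TGF-β and 2200.4 with costimulation. Of 10 skeletal and cardiac muscle markers the sum lay between 0.709 and 1.52 RPKM, and that of 5 fibroblast markers did not exceed 0.082 RPKM. The 5 smooth muscle markers summed to 6.12 RPKM in control and 5.77 with TNF-α, and to 15.8 with TGF-β and 16.8 with costimulation, most of it from smoothelin (Smtn).

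Differences were read in 3 ways. A fold is the ratio of RPKM between 2 libraries, with a 95% counting interval that covers counting error only and neither culture nor library preparation. A gene was called higher at a fold above 2 with an RPKM above 2 in the treated library, and lower at a fold below 0.5 with an RPKM above 2 in the library it was compared with. For a test, edgeR's quasi-likelihood method was fitted to the exon reads of 13509 genes with a term for each cytokine and no interaction, so that each cytokine's effect is an average over both states of the other and the spread comes from 1 residual degree of freedom per gene, shared across genes. Its p-values therefore measure departure from additivity and the spread borrowed from other genes, not variation between cultures.

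With TGF-β, 4 of the 9 genes rose in the edgeR test at an adjusted p below 0.05 (Tpm1, Tpm4, Actn1 and Flna), beside 18.6% of all genes tested, and 2 of 9 fell (Tpm2 and Slk), beside 19.9% of all genes. Taking both directions together, 6 of 9 were called, beside 38.4% of all genes. Tpm3, Actn4 and Cttn did not pass. The median log2 fold change for TGF-β was 0.24 over the 9 genes and 0.0065 over all 13509 genes. For TNF-α, 0 of the 9 genes passed in either direction with edgeR, DESeq2 or limma, beside 0.422% of all genes with edgeR (0.289% higher, 0.133% lower). At an unadjusted p below 0.05 there were 0 of the 9 and 568 of the 13509 genes with edgeR. By the fold rule, Tpm1 and Actn1 were higher with TGF-β than in control (2 of 9, beside 5.73% of genes) and Actn1 alone was higher in costimulation than with TNF-α (1 of 9, beside 4.65%). None was lower in either of these comparisons (beside 6.05% and 5.21%). No gene was called for TNF-α over control (0.25% of genes higher, 0.0833% lower) or for costimulation over TGF-β (0.136% higher, 0.0417% lower).

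**Figure D1:**
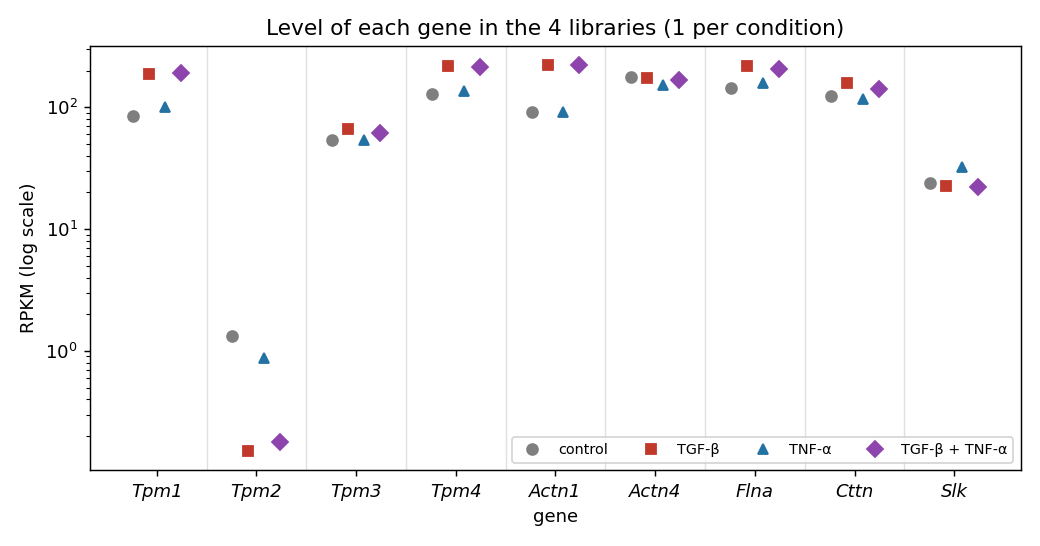
Level of each of the 9 genes in RPKM (log scale) in the 4 libraries, with 1 point per library and genes on the horizontal axis. Actn1 stood at 91.9 and 91.8 RPKM in the libraries without TGF-β and at 221 in both libraries with it, whereas Tpm2 did not exceed 1.32 RPKM.

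Tropomyosin 1, the product of Tpm1, is the long tropomyosin best known from muscle and from stress fibers. Tpm1 measured 85.2 RPKM in control (30702 exon reads) and 100.2 in the TNF-α library (37181 reads), and 187 with TGF-β (72638 reads) and 192 in costimulation (69809 reads). Both libraries with TGF-β lay above both without it. The fold was 2.19 for TGF-β over control (interval 2.17 to 2.22), and with TNF-α present, costimulation gave 1.92 over TNF-α alone (1.89 to 1.94). These comparisons share no library. TNF-α over control gave 1.18 (1.16 to 1.19), and costimulation over TGF-β gave 1.03 (1.02 to 1.04). In the edgeR test the log2 fold change for TGF-β was 0.97 ± 0.12 (SE, Benjamini-Hochberg adjusted p = 8.1e-14), and Tpm1 was called in all 10 alternative fits. When each fold was divided by the median fold of genes of like GC content and length, the Tpm1 folds were 1.91 and 1.78, under the fold threshold of 2.

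Tpm4 encodes a short, non-muscle tropomyosin. By all exon reads per unit length, and with reads placed on Tpm3-rs7 left out, it was the most abundant tropomyosin gene in every library. Its level was 129 RPKM in control and 135 in the TNF-α library, and 220 with TGF-β and 216 in costimulation. As for Tpm1, both libraries with TGF-β lay above both without it. The folds with TGF-β were 1.70 (1.68 to 1.73) over control and 1.60 (1.57 to 1.63) over TNF-α, both below the fold threshold. The edgeR log2 fold change was 0.66 ± 0.13 (adjusted p = 2.4e-06). Between 83.5% and 85.3% of Tpm4 reads were unique, and with unique reads alone the log2 fold change was 0.64.

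Tpm3, which encodes cytoplasmic and slow-muscle tropomyosins, measured 53.5 RPKM in control and 53.4 in the TNF-α library, and 65.9 with TGF-β and 61.0 in costimulation. The libraries with TGF-β were higher beyond counting error (folds 1.23, interval 1.21 to 1.26, and 1.14, interval 1.12 to 1.17), but the edgeR log2 fold change of 0.18 ± 0.14 did not pass (adjusted p = 0.31). These values are uncertain, because between 42.8% and 44.3% of Tpm3 reads were unique and the remainder could be shared with Tpm3-rs7. With unique reads alone the folds were 1.19 and 1.12, and the edgeR log2 fold change was 0.14 (adjusted p = 0.49). Tpm3-rs7 was given 20286, 23968, 19867 and 21007 reads in the order control, TGF-β, TNF-α and costimulation, and 0 of them spanned a junction. The summed reads of both genes, scaled to mapped reads, had folds of 1.15 and 1.11 with TGF-β. Junction reads of Tpm3 had folds of 1.25 and 1.18. Of these reads, 3042 of 6900 were unique in control and 3898 of 9291 with TGF-β. A read from the intronless copy can match across a Tpm3 junction, so these folds do not set Tpm3 apart from it.

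Tpm2, which encodes the β-tropomyosin known from muscle, was the only tropomyosin gene that fell and was near the lower end of detection. It had 243 exon reads in control (1.32 RPKM) and 166 in the TNF-α library (0.874 RPKM), and 30 with TGF-β (0.151 RPKM) and 33 in costimulation (0.177 RPKM). The fold was 0.115 (0.0756 to 0.168) for TGF-β over control. Costimulation over TNF-α gave 0.203 (0.135 to 0.296). The edgeR log2 fold change was −2.78 ± 0.35 (adjusted p = 1.7e-14), with a call in all 10 alternative fits, in which it ranged from −3.09 to −2.16. It did not count as lower by the fold rule because its control level was below 2 RPKM. TNF-α over control gave 0.663 (0.541 to 0.811), and the interval of costimulation over TGF-β (0.695 to 1.996) included 1.

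The 4 tropomyosin genes together measured 269 RPKM in control and 289 in the TNF-α library, and 473 with TGF-β and 469 in costimulation, folds of 1.76 and 1.62 with TGF-β. Within that sum Tpm1 took 31.7% in control and 34.6% in the TNF-α library, and 39.6% with TGF-β and 41.0% in costimulation. The share of Tpm3 was 19.9% and 18.5% without TGF-β, and 13.9% and 13.0% with it, and that of Tpm2 did not exceed 0.49%. The share of Tpm4 lay between 46.0% and 47.9%. With unique reads in place of all reads the Tpm1 share was 38.5% and 41.8% without TGF-β, and 46.6% and 47.7% with it, and that of Tpm4 was 50.1% and 47.9%, and 46.2% and 45.6%. Tpm1 thus stood above Tpm4 in both libraries with TGF-β when unique reads were counted, and below it when all reads were counted. The Tpm3 share with unique reads was 10.8% and 9.89% without TGF-β, and 7.11% and 6.60% with it. The shares therefore depended on how shared reads were counted. With either count Tpm1 took more and Tpm3 less of the sum in both libraries with TGF-β than in both without. Reads placed on Tpm3-rs7 were in neither count, although that gene was given more reads than Tpm3 (20286 against 14544 in control). How many of them came from Tpm3 was not tested, so the sum, its folds and all shares rest on leaving them out.

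**Figure D2:**
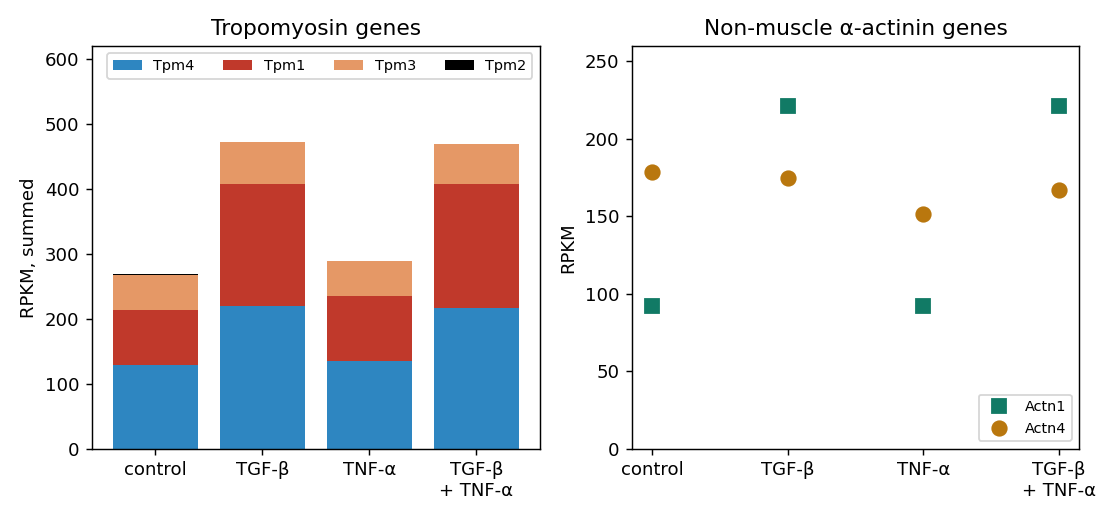
Left, RPKM of the 4 tropomyosin genes stacked for each library, where the height is their sum without reads placed on Tpm3-rs7. Right, RPKM of Actn1 and Actn4 in each library, where Actn1 lies below Actn4 in control and with TNF-α and above it in both libraries with TGF-β.

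Of the actinin genes, Actn1 passed the test for TGF-β and Actn4 did not, and the difference between them was not tested. Actn1 encodes α-actinin-1, found in stress fibers and focal adhesions. Its level was 91.9 RPKM in control (26313 reads) and 91.8 in the TNF-α library (27062 reads), and 221 with TGF-β (68313 reads) and 221 in costimulation (63811 reads). The libraries formed 2 levels set apart by TGF-β, and within each level the counting intervals of the fold included 1 (0.982 to 1.02 for TNF-α over control, 0.988 to 1.01 for costimulation over TGF-β). The fold with TGF-β was 2.41 without TNF-α (2.37 to 2.44) and 2.41 with it (2.37 to 2.44). Actn1 had the largest rise of the 9 genes in the edgeR test, with a log2 fold change of 1.20 ± 0.13 (adjusted p = 2.3e-20), and it was called in all 10 alternative fits.

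Actn4 encodes α-actinin-4, the second non-muscle form. It measured 179 RPKM in control and 152 in the TNF-α library, and 174 with TGF-β and 167 in costimulation. The edgeR log2 fold change for TGF-β was −0.013 ± 0.12 (adjusted p = 0.95), and its sign differed between alternative fits. The lowest level was in the TNF-α library, 0.849 of control (0.838 to 0.859). The ratio of Actn1 to Actn4 RPKM was 0.515 in control and 0.606 in the TNF-α library, and 1.27 with TGF-β and 1.32 in costimulation, so that Actn1 lay below Actn4 in both libraries without TGF-β and above it in both with TGF-β. Actn4 shares 316 exon bases with Capn12 on the opposite strand, but Capn12 had between 0 and 4 reads per library.

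Flna, the filamin that links actin to integrins and to many signaling proteins, measured 143 RPKM in control (91775 reads) and 157 in the TNF-α library (103844 reads), and 219 with TGF-β (151136 reads) and 207 in costimulation (133567 reads). Both libraries with TGF-β were above both without it. The folds were 1.53 (1.51 to 1.54) and 1.31 (1.30 to 1.32), and with genes of like GC content and length as the reference 1.32 and 1.21. The edgeR log2 fold change was 0.43 ± 0.12 (adjusted p = 0.0011). Without the TGF-β library and with TGF-β as the only term, the log2 fold change was 0.39 ± 0.16 and the call was lost.

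Cttn, a substrate of Src that marks lamellipodia and invadopodia, measured 124 RPKM in control and 116 in the TNF-α library, and 157 with TGF-β and 140 in costimulation. Its folds with TGF-β were 1.26 (1.25 to 1.28) and 1.21 (1.19 to 1.23). The edgeR log2 fold change was 0.24 ± 0.13 (adjusted p = 0.13), but limma on log2(RPKM + 0.1) passed at an adjusted p of 0.042. Without the control library and with TGF-β as the only term, edgeR gave 0.29 and passed.

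Slk was highest in the TNF-α library, at 32.2 RPKM (18437 reads) against 23.7 in control (13146 reads), 22.4 with TGF-β (13410 reads) and 22.2 with costimulation (12419 reads). The other 3 libraries lay between 22.2 and 23.7 RPKM. TGF-β over control gave a fold of 0.946 (0.924 to 0.969), and costimulation over TNF-α gave 0.688 (0.672 to 0.704). The edgeR log2 fold change for TGF-β was −0.38 ± 0.14 (adjusted p = 0.019). This call was lost at log2 fold changes of like size without the TGF-β library (−0.40, adjusted p = 0.17), without the costimulation library (−0.38, adjusted p = 0.20) and with TGF-β as the only term (−0.39, adjusted p = 0.060). It held without the control library, at −0.60 (adjusted p = 1.5e-05), and without the TNF-α library, at −0.18 (adjusted p = 0.043). TNF-α over control was 1.36 (1.33 to 1.39), and 1.16 against genes of like GC content (Slk exons hold 45.3% GC, the median gene 50.2%) and length. The folds with TGF-β against such genes were 0.750 over control and 0.650 over TNF-α. Across 13353 genes the log2 fold of TNF-α over control had a Spearman coefficient of −0.54 with exon GC content. For TGF-β over control the coefficient was −0.25, and when costimulation was compared with TNF-α it was 0.024. The part of GC content in the Slk values was not tested.

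**Figure D3:**
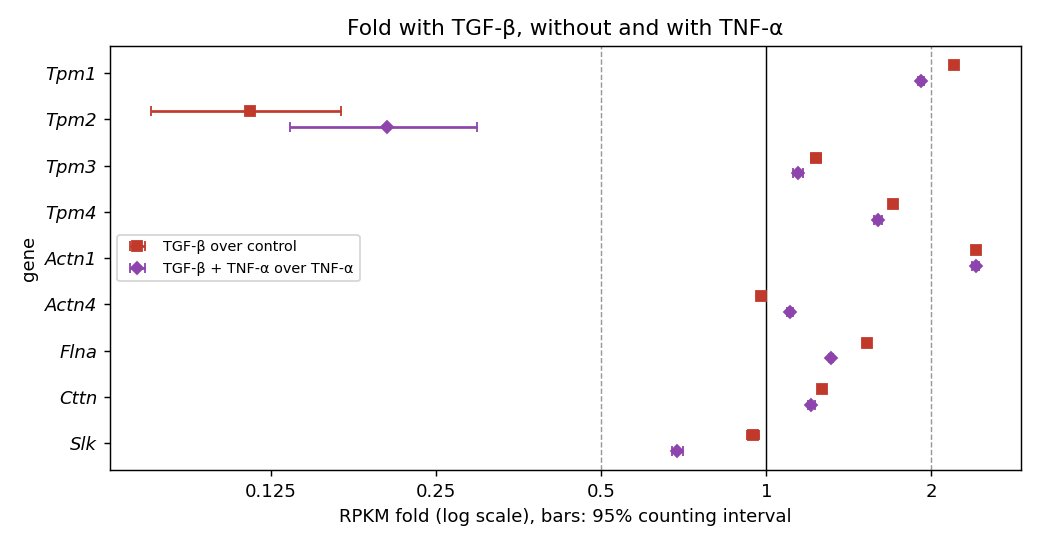
RPKM fold with TGF-β for each gene, over control (squares) and with TNF-α present (diamonds), on a log axis with 95% counting intervals as bars. The dashed lines mark folds of 0.5 and 2, and the solid line marks 1. Actn1 and Tpm1 lie at 2.41 and 2.19 over control, and Tpm2 lies at 0.115.

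The difference between the TGF-β folds with and without TNF-α is a value with no test. On the log2 scale the fold with TNF-α minus that without was 0.0002 for Actn1, −0.19 for Tpm1, −0.22 for Flna and −0.46 for Slk. Of 8988 genes above 2 RPKM in every library, 50.3% had a larger difference than Tpm1 and 9.42% a larger one than Slk. Tpm2 had 0.83, from 30 and 33 reads in the libraries with TGF-β.

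The share of exon reads that span an exon-exon junction, which depends on isoform, exon structure and read length, was compared as a description. Of Tpm1 exon reads, 44.7% spanned a junction in control (Wilson 95% interval 44.1 to 45.2) and 45.2% in the TNF-α library (44.7 to 45.7), and 48.4% did with TGF-β (48.0 to 48.8) and 49.5% in costimulation (49.2 to 49.9). Both libraries with TGF-β were above both without it, by 3.73 and 4.33 percentage points. Among 7827 genes with at least 1000 exon reads in every library the median difference was 0 and 0.40 points, and 8.75% and 3.23% of genes had a larger rise than Tpm1. The Tpm1 reads were assigned to 5 of its 18 annotated transcripts in the libraries without TGF-β and to 6 in those with it. The latter also had more Tpm1 reads (72638 and 69809, against 30702 and 37181). Whether the number of reads accounts for the added transcript was not tested.

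Tpm4 junction shares were 34.0%, 36.3%, 34.2% and 37.2% in the order control, TGF-β, TNF-α and costimulation, again higher in both libraries with TGF-β. Cttn shares were 50.7%, 52.8%, 52.0% and 52.9% in that order, also higher with TGF-β, with overlapping intervals among the 3 cytokine libraries. For TGF-β over control and costimulation over TNF-α, 16.6% and 9.59% of the 7827 genes had a larger rise than Tpm4. For Cttn these were 18.8% and 39.7%. For Actn1 the shares were lower with TGF-β by 1.16 and 1.28 points, and for Flna by 1.10 and 1.27 points. Slk had 20.3% in control and between 23.1% and 23.8% in the 3 cytokine libraries. A larger rise than that of Slk was seen in 14.1% of genes for TGF-β over control and in 7.90% for TNF-α over control. Over the 9 genes the share was higher with TGF-β than in control in 5 (48.8% of the 7827 genes), and in costimulation than with TNF-α in 5 (59.1%). Tpm2 had too few reads for a comparison, with intervals of 39.2 to 72.6 with TGF-β and 59.3 to 71.1 in control.

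**Figure D4:**
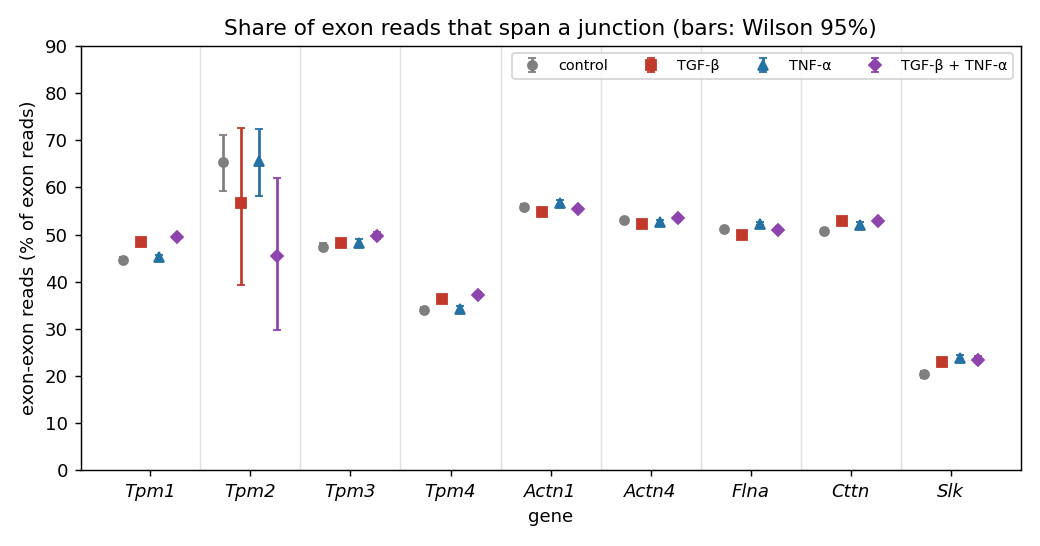
Percent of exon reads that span an exon-exon junction for each gene and library, with Wilson 95% intervals as bars. Tpm1, Tpm4 and Cttn are higher in both libraries with TGF-β, Cttn by less than the others. The intervals of Tpm2 are wide because it had between 30 and 243 reads.

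The closest relatives of the 9 genes were read from the same fit. The muscle actinins were near 0, with 0 to 4 reads for Actn2 and 14 to 56 for Actn3, although Actn3 passed the test (log2 fold change 1.57 ± 0.53, adjusted p = 0.010). Flnc, the filamin of striated muscle, rose from 8.75 RPKM in control and 10.0 with TNF-α to 27.8 with TGF-β and 26.3 with costimulation (log2 fold change 1.46 ± 0.14, adjusted p = 2.0e-23). Hcls1, the haematopoietic relative of Cttn, had 1 to 9 reads. Stk10, the kinase closest to Slk, fell from 2.74 to 2.23 RPKM with TGF-β (log2 fold change −0.37 ± 0.15, adjusted p = 0.044). In DESeq2 Flnc was called, and Actn3 (adjusted p = 0.20) and Stk10 (adjusted p = 0.17) were not.

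The counts of each list below stand beside 18.6% of all genes tested that rose with TGF-β and 19.9% that fell. Among 15 tested genes for proteins that sit on or move along tropomyosin-coated filaments, 10 rose and 1 fell with TGF-β (median log2 fold change 0.75). The largest rises were in the calponin gene Cnn1 (2.47 ± 0.54, adjusted p = 2.4e-05) and the leiomodin gene Lmod1 (2.001 ± 0.68, adjusted p = 0.011), both at 0.289 RPKM or less in every library. In DESeq2 Cnn1 passed (adjusted p = 0.021) and Lmod1 did not (adjusted p = 0.24). The gene that fell was Myl12b, a myosin regulatory light chain (−0.50 ± 0.15, adjusted p = 0.0040), from 28.8 to 21.3 RPKM. Of 17 adhesion partners of actinin and filamin, 9 rose and 3 fell (median 0.34). Pdlim7, a PDZ and LIM protein of stress fibers, rose from 20.0 to 63.3 RPKM (1.66 ± 0.15, adjusted p = 1.6e-28), and the integrin β1 gene Itgb1 rose from 77.4 to 242 RPKM (1.46 ± 0.13, adjusted p = 1.4e-29). The Pdlim7 relatives Pdlim2 and Pdlim5 fell, by 1.09 and 0.87 on the log2 scale.

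Other crosslinkers moved in both directions, with 4 of 13 higher and 4 lower (median 0.08), beside 18.6% and 19.9% of all genes. Villin (Vil1) and plastin 1 (Pls1), both bundlers of the microvillus core, fell from 19.7 to 0.581 RPKM (−5.32 ± 0.19, adjusted p = 2.6e-164) and from 27.0 to 3.33 RPKM (−3.10 ± 0.16, adjusted p = 3.7e-76). Plastin 3 (Pls3) rose from 26.8 to 60.1 RPKM (0.91 ± 0.14, adjusted p = 8.6e-10), and Marcksl1 rose by 0.80 on the log2 scale. The branched-actin partners of cortactin had 4 of 18 higher and 2 lower (median −0.11), beside the same shares of all genes. The Arp2/3 subunit genes Arpc2 and Actr3 fell by 0.56 and 0.47 on the log2 scale, whereas Cttnbp2nl, which encodes a cortactin-binding-protein relative, rose (1.66 ± 0.15, adjusted p = 2.2e-25) and Wipf1 rose by 0.66.

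Of 10 tested ezrin-radixin-moesin and STE20 kinase genes beside Slk, 4 rose and 3 fell (median 0.21), again beside 18.6% and 19.9% of all genes. The moesin gene Msn rose from 61.2 to 290 RPKM (2.01 ± 0.13, adjusted p = 7.6e-54), and the ezrin gene Ezr fell from 406 to 148 RPKM (−1.45 ± 0.12, adjusted p = 4.2e-30). The STE20 kinase genes Taok1 and Taok3 moved by 0.51 and −0.54. Of 7 actin and SRF-regulator genes, 2 rose and 1 fell. Acta2 and Acta1, the smooth and skeletal muscle actins, rose but stayed at or below 1.63 RPKM, and Srf fell (−0.40 ± 0.15, adjusted p = 0.026). Over the 83 tested genes of these 7 lists 35 rose and 14 fell, beside the 18.6% and 19.9% of all genes given above. In DESeq2 the filament partners had 8 higher and 1 lower, the adhesion partners 9 and 2, and the other crosslinkers 3 and 4. The branched-actin partners had 2 and 2, and the ezrin-radixin-moesin and STE20 genes 4 and 2. The actin and SRF-regulator genes had 2 and 1, and the paralogs 1 and 0. Over all 13509 genes DESeq2 gave 1888 higher and 2057 lower.

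For each gene the 3 genes with the most similar pattern were taken by the Euclidean distance between log2 folds over control in the 3 cytokine libraries, among 8980 other genes above 2 RPKM in every library. Nearest to Tpm1 were Fam84a (distance 0.035), Ccne1 (0.067) and Slc20a1 (0.071), and nearest to Actn1 were Ube2f (0.045), Nsmce3 (0.069) and Micall1 (0.074). Tpm4 was nearest to Lipt2 and Myo19, Flna to Gclm, Sec24d and Pcnx4, and Slk to Slc25a36, Zfp97 and Asb1. Tpm2 stood farther from any of these genes, with Ppp1r1b at 0.14, Adap1 at 0.22 and Frat1 at 0.31. It was itself below 2 RPKM in every library, with 30 and 33 reads in those with TGF-β. Genes that fell to such levels were left out by the filter, so this distance does not set Tpm2 apart. Tpm3 was nearest to Sesn1, Ptdss1 and Ccdc157, Actn4 to Grn, Cdk1 and Smarcb1, and Cttn to Stim1, Cdk11b and Cux1. Among the 9 genes themselves Tpm3 and Cttn were closest (0.099), followed by Tpm4 and Flna (0.28) and by Tpm1 and Actn1 (0.29). All 3 folds share the control library.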

How the data were processed

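RNA-seq reads of 4 CMT64 libraries (control, TGF-β, TNF-α and both, 1 each) were trimmed of adapters and mapped by the authors with CLC Genomics Workbench (version not given in the sources used here) at its default settings (length and similarity fractions 0.8, at most 30 hits per read) to mm10, the build named in the submitters' processing notes. The deposited counts are whole reads per gene, given once with multi-mapping reads (total) and once without (unique). The authors also deposited RPKM values, which relate these total reads to exon length and mapped reads. Whether the counting used strand is not given, so antisense overlaps could not be separated. Mapped reads ranged from 75358896 to 81245906.

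Tests were made on total exon reads with edgeR (4.0.16; TMM, filterByExpr, robust quasi-likelihood, a term per cytokine, no interaction) in R (4.3.3), with Benjamini-Hochberg adjustment over all genes tested and a threshold of 0.05. The SE of a log2 fold change was obtained as its size over √F. Counting intervals are Clopper-Pearson intervals of the conditional binomial at 95%. DESeq2 (1.42.0), limma (3.58.1; pseudocount 0.1), other scalings, unique reads, no filter, a single cytokine term and each library left out were the alternatives, and the procedure was tested on simulated data. The fits with a library left out had only the tested cytokine as a term. Intervals, folds and plots were computed in scipy (1.17.1), pandas (2.3.3), numpy (2.4.6) and matplotlib (3.10.9) under Python (3.11.15). Named were all 9 genes, their 6 paralogs, the 2 called genes with the largest rise and the 2 with the largest fall for TGF-β in each other list, and the 3 nearest genes by pattern, except that 1 paralog and 1 nearest gene are not reported here. The 9 genes, the lists and the tests were chosen with earlier results of these data known.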

Additional observations from a re-analysis of the deposited data

Results flagged for a closer look

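For 3 of the 9 genes the fold of a cytokine pointed in opposite directions with and without the other cytokine, with counting intervals on both sides that excluded 1. The same was seen in 28.9% of 8988 genes above 2 RPKM in every library, and in 43.9% of the 1081 of them with at least 10000 exon reads in each, which include 8 of the 9 genes, so 3 is near the background. With 1 library per condition the difference was not tested, and intervals cover counting error only. Tpm4 had a fold of 1.05 for TNF-α over control and 0.982 for costimulation over TGF-β. Actn4 had 0.977 when TGF-β was given alone, relative to control, and 1.10 when it was added to TNF-α. Flna had 1.10 for TNF-α over control and 0.945 for costimulation over TGF-β. Against genes of like GC content and length the folds were 1.01 and 0.972 for Tpm4, 0.941 and 1.00 for Actn4, and 1.07 and 0.994 for Flna.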

How the results depend on the processing

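No paired analysis was possible because each condition had 1 library and the labels give no replicate numbers. Tpm1, Tpm4 and Actn1 stayed higher and Tpm2 lower with TGF-β, at an adjusted p below 0.05, in each of the 10 alternative fits. The Actn4 log2 fold change, which passed in none, turned positive with limma (0.055) and ranged from −0.15 to 0.11 when each library was left out. Members lower with TGF-β numbered 1 with TGF-β as the only term and 1 to 2 with a library left out. Over all genes, leaving out a library gave 1406 to 3658 higher and 1654 to 3817 lower with TGF-β, and 0 in either direction with TNF-α (26 to 90 at an unadjusted p below 0.05). For TNF-α, unique reads gave 11 lower, DESeq2 gave 17 higher and 2 lower, limma gave 66 and 30, and TNF-α as the only term gave 0 and 0 (21 at an unadjusted p below 0.05, beside 568 with both terms). By the fold rule, 1 member was higher with TGF-β over control in bins of GC content and length, and 1 was lower there and in costimulation over TNF-α when no RPKM threshold was set (Tpm2). The unique-read shares of Tpm1 among tropomyosins (control, TGF-β, TNF-α, costimulation) were 38.5%, 46.6%, 41.8% and 47.7%, against 31.7%, 39.6%, 34.6% and 41.0% with all reads. Reads placed on Tpm3-rs7 were in neither count. Causes were not tested. With 1 library per condition, differences between cultures cannot be told apart from those between cytokines.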
